A study of Rattus norvegicus with 16 samples.

Results

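Smooth muscle contractile genes were followed in the aorta and kidney of 1-year-old male rats through 3 members, Acta2 (ENSRNOG00000058039), Tagln (ENSRNOG00000017628) and Des (ENSRNOG00000019810), chosen by identifier and name among the 23918 genes listed in both tissues. All 3 were listed and had counts in every library. The animals were wild type Sprague-Dawley rats that breathed room air (RA) throughout, or 85% oxygen (hyperoxia) from postnatal day 1 to 14 and room air afterwards. Each tissue had 4 RA and 4 hyperoxia libraries of polyA-selected RNA, 16 in all. The pups were randomized to oxygen and nursed by mothers rotated between the chambers, the aortic samples came from the arch and thoracic aorta, and only the survivors of the exposure reached 1 year. Each group and organ was sampled from 4 animals, per the study's methods, and the labels do not say which aorta and kidney came from the same animal.

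Smooth muscle cells of the arterial media hold the vessel's tone with actin filaments pulled by myosin. Acta2 encodes smooth muscle alpha-actin, the main actin of that apparatus, and Tagln encodes transgelin (SM22), an actin-binding protein that follows the contractile state. Des encodes desmin, the muscle intermediate filament that ties the contractile units to each other and to the membrane. Desmin is also made in striated muscle, pericytes and, in the rat kidney, mesangial cells, and injured podocytes are known to express it. Contractile smooth muscle genes are commonly driven by serum response factor, which binds the CArG box, a run of A or T bases between CC and GG.

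The proximal promoters are shown because the members are often treated as one programme under CArG control. RefSeq promoter sequence (build GRCr8, which differs from the build of the counts) was matched by symbol for 2 of the 3 members. It covers the 250 bases before the annotated start, for Acta2 at chr1:241172504-241172753 on the minus strand and for Des at chr9:84299376-84299625 on the plus strand. Tagln had no entry. Capitals mark CArG boxes with at most 1 mismatch in the A or T run, and the sequence CAGCTG, an E-box.
Acta2: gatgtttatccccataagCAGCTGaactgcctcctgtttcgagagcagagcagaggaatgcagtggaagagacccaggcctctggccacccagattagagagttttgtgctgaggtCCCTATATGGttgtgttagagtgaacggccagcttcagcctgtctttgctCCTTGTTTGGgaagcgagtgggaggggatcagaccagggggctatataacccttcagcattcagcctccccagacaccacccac
Des: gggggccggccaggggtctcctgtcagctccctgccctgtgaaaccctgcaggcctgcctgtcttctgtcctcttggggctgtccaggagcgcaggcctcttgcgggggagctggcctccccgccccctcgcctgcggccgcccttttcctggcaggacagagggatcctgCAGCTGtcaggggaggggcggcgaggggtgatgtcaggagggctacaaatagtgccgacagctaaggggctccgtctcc

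The Acta2 window held 2 CArG boxes with 1 mismatch, CCCTATATGG from position −134 to −125 and CCTTGTTTGG from −84 to −75, counted back from −1 at the base before the annotated start. The Des window held none. Both windows held 1 copy of CAGCTG, from −232 to −227 in Acta2 and from −79 to −74 in Des. Of 33469 promoters of the same length, 8.08% held a CArG box with at most 1 mismatch, 0.693% held at least 2, and 11.97% held CAGCTG. Neither window held an exact CArG box, which 1.497% of promoters did. The CArG pattern searched and CAGCTG are each their own reverse complement, so a search of one strand covers both, and the marked matches did not overlap.

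RA aortas held 33611534 to 47021612 counts and hyperoxia aortas 68643302 to 83929106, so the groups did not overlap in depth (exact permutation, two-sided, p = 0.0286, the lowest that 4 against 4 can give). In the aorta, depth and exposure cannot be told apart. Kidney libraries held 25031895 to 26521837 counts and did not separate by depth (exact permutation test, p = 0.514). The share of counts taken by the 10 most abundant genes ranged from 12.3% to 39.6% in the aorta and from 24.9% to 34.5% in the kidney.

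Levels are given as CPM, counts scaled to a common library total, which compare libraries for one gene but not one gene with another, since no gene lengths were used. In bulk tissue, fewer smooth muscle cells and less RNA per cell cannot be told apart. The 3 members together made up 1.24% to 2.98% of all counts in aortas and 0.00742% to 0.0455% in kidneys. For every member, the lowest aorta stood far above the highest kidney.

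Acta2 was at 9667, 5351, 10821 and 16137 CPM in RA aortas 1 to 4 and at 12312, 15664, 13966 and 10847 CPM in hyperoxia aortas 1 to 4. The hyperoxia values lay within the RA range, and RA aorta 2 was the lowest and RA aorta 4 the highest. The mean of the RA group was 10494 ± 4438 CPM and that of the hyperoxia group 13197 ± 2080 CPM (SD, n = 4 each). The highest RA aorta held 3.02 times the lowest, and the highest hyperoxia aorta 1.44 times the lowest.

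Tagln was at 9132, 5816, 11782 and 11756 CPM in RA aortas 1 to 4 and at 8381, 9692, 9265 and 7092 CPM in hyperoxia aortas 1 to 4. As for Acta2, the hyperoxia values lay inside the RA range and RA aorta 2 was lowest. RA aortas averaged 9622 ± 2825 CPM and hyperoxia aortas 8608 ± 1149 CPM (SD, n = 4 each).

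Des was at 1636, 1245, 1539 and 1951 CPM in RA aortas 1 to 4 and at 832, 1455, 1204 and 718 CPM in hyperoxia aortas 1 to 4. RA aortas averaged 1593 ± 291 CPM and hyperoxia aortas 1052 ± 339 CPM (SD, n = 4 each), with hyperoxia aorta 2 above the lowest RA aorta. On this scale 0 of the 3 members separated the groups without overlap, as 3.64% of the genes tested did. With library sizes scaled by the trimmed mean of M-values (TMM), the lowest RA aorta was at 1384 CPM and the highest hyperoxia aorta at 1262 CPM. After TMM scaling the groups did not overlap for Des, as for 4.59% of the 15086 genes tested and, counting those lower in hyperoxia alone, 2.49%.

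**Figure D1:**
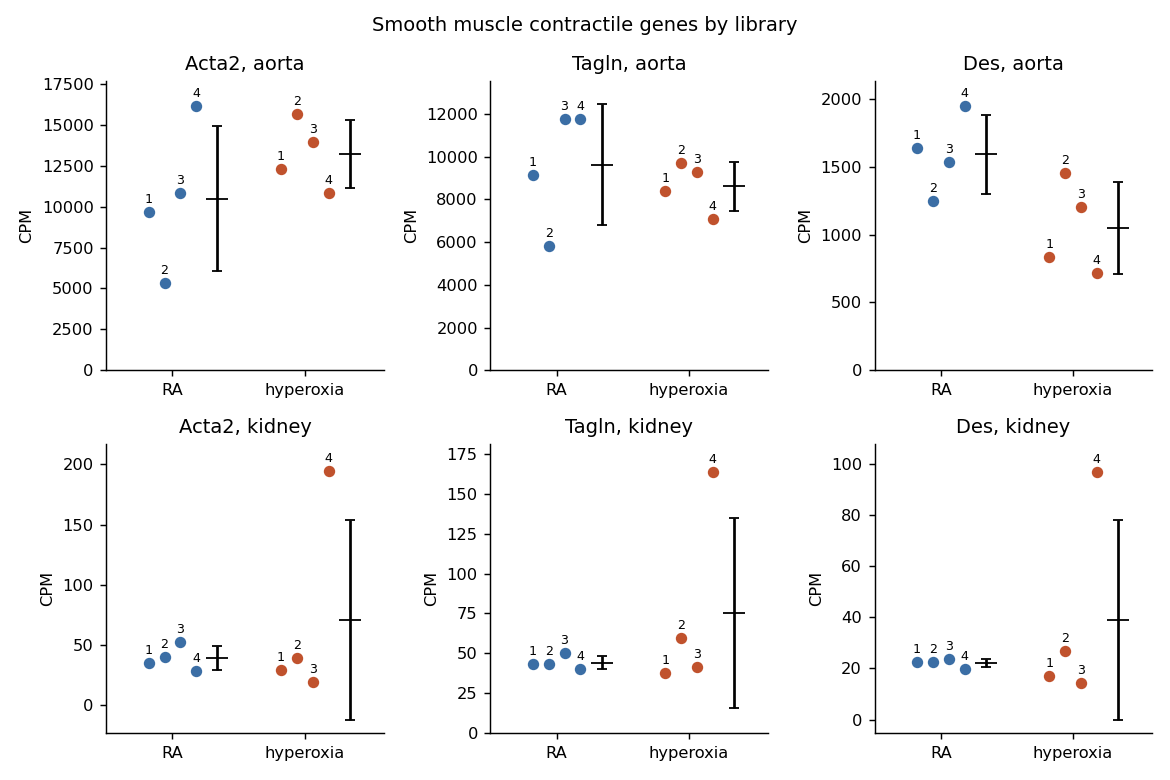
CPM of Acta2, Tagln and Des in each library (vertical axes, CPM by library total) for RA and hyperoxia, with aortas in the upper row, kidneys in the lower row, replicate numbers beside the points and bars for mean ± SD (n = 4). Hyperoxia kidney replicate 4 sits at 194, 164 and 97.0 CPM, above all other kidneys.

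Exposure was tested within each tissue with edgeR's quasi-likelihood test on all genes, adjusted by Benjamini-Hochberg to a false discovery rate (FDR). A gene was called where the FDR was below 0.1 and the log2 fold change beyond 0.32 in either direction, which are the study's thresholds. In the aorta 0 of the 3 members were called, against 0.0199% of genes tested (3 of 15086). With DESeq2, 0 members were called against 1.13% of genes.

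The log2 fold change of Acta2 in the aorta was 0.33 (standard error 0.28, FDR 0.709 from edgeR), with a 95% interval of −0.29 to 0.95. For Tagln it was −0.17 (standard error 0.23, FDR 0.828 from edgeR), with an interval of −0.68 to 0.34. The intervals left room for a change in either direction for both genes. For Des it was −0.64 (standard error 0.22, FDR 0.510 from edgeR), with an interval of −1.15 to −0.14. Des was the only member below 0.05 before adjustment (edgeR's model across all genes rather than a permutation, unadjusted p = 0.0173), and 6.43% of the genes tested had a lower log2 fold change. Its value stayed between −0.76 and −0.50 when each library was left out in turn. The median log2 fold change over all genes was −0.02 in the aorta.

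By CPM, RA aorta 2 was lowest in Acta2 and Tagln, and 39.6% of its counts were in its 10 most abundant genes. RA aorta 4, highest by CPM in Acta2 and Des, had 12.4% there. In hyperoxia aortas that share was 12.3% in replicate 2, which by CPM was the highest of its group in all 3 members, and 22.0% to 24.2% in the others. The part of this composition in the levels was not tested. After TMM scaling, hyperoxia aorta 3 stood above aorta 2 in Acta2 (14632 against 13583 CPM) and Tagln (9708 against 8405 CPM). On that scale RA aorta 1 stood above RA aorta 4 in Des (1839 against 1709 CPM). RA aorta 2 stayed the lowest aorta in Acta2 and Tagln. Leaving out RA aorta 2 moved the log2 fold change of Acta2 to 0.16 and of Tagln to −0.29, and leaving out RA aorta 4 moved that of Acta2 to 0.53. None of these changed a call.

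Relative to Acta2, both Tagln and Des were lower in every hyperoxia aorta than in every RA aorta. A ratio of 2 genes' counts within one library does not depend on its depth or scaling, and it is compared here only between libraries. Tagln to Acta2 was 0.945, 1.09, 1.09 and 0.729 in RA aortas 1 to 4 and 0.681, 0.619, 0.663 and 0.654 in hyperoxia aortas 1 to 4. Every hyperoxia aorta was below every RA aorta, the nearest being RA aorta 4. The mean ratio was 0.962 ± 0.170 in RA and 0.654 ± 0.0261 in hyperoxia (SD, n = 4 each).

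Des to Acta2 was 0.169, 0.233, 0.142 and 0.121 in RA aortas 1 to 4 and 0.0676, 0.0929, 0.0862 and 0.0662 in hyperoxia aortas 1 to 4. Again the groups did not overlap, with means of 0.166 ± 0.0485 in RA and 0.0782 ± 0.0134 in hyperoxia (SD, n = 4 each). The geometric mean ratio in hyperoxia was 0.480 times that in RA for Des to Acta2 and 0.688 times for Tagln to Acta2. Both differences gave the smallest p the design allows (two-sided exact permutation test, p = 0.0286, Benjamini-Hochberg adjusted p = 0.0857 over 6 ratios), and neither stayed below 0.05 after adjustment. Going below 0.05 would have needed more of the 6 ratios at that smallest p, so missing it says little about these 2. Among all genes tested in the aorta, the ratio to Acta2 did not overlap between the groups for 2.74%, and was lower in hyperoxia without overlap for 2.42%.

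Des to Tagln was 0.179, 0.214, 0.131 and 0.166 in RA aortas 1 to 4 and 0.0993, 0.1501, 0.130 and 0.101 in hyperoxia aortas 1 to 4. Here RA aorta 3 lay below hyperoxia aorta 2, so the groups overlapped, whereas the ratio to Tagln did not overlap for 6.79% of genes. The hyperoxia geometric mean was 0.697 times that of RA (two-sided exact permutation test, p = 0.0571, adjusted p = 0.114). Both ratios to Acta2 share that gene as their denominator and are not independent of each other. The estimated counts of Tagln were not whole in any of the 16 libraries, and those of Acta2 were not whole in 3 kidneys. Des was whole throughout. The largest deposited counts were given to fewer digits, so whole values of Acta2 in the aorta do not show whether its reads were divided with other genes, which was not tested.

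**Figure D2:**
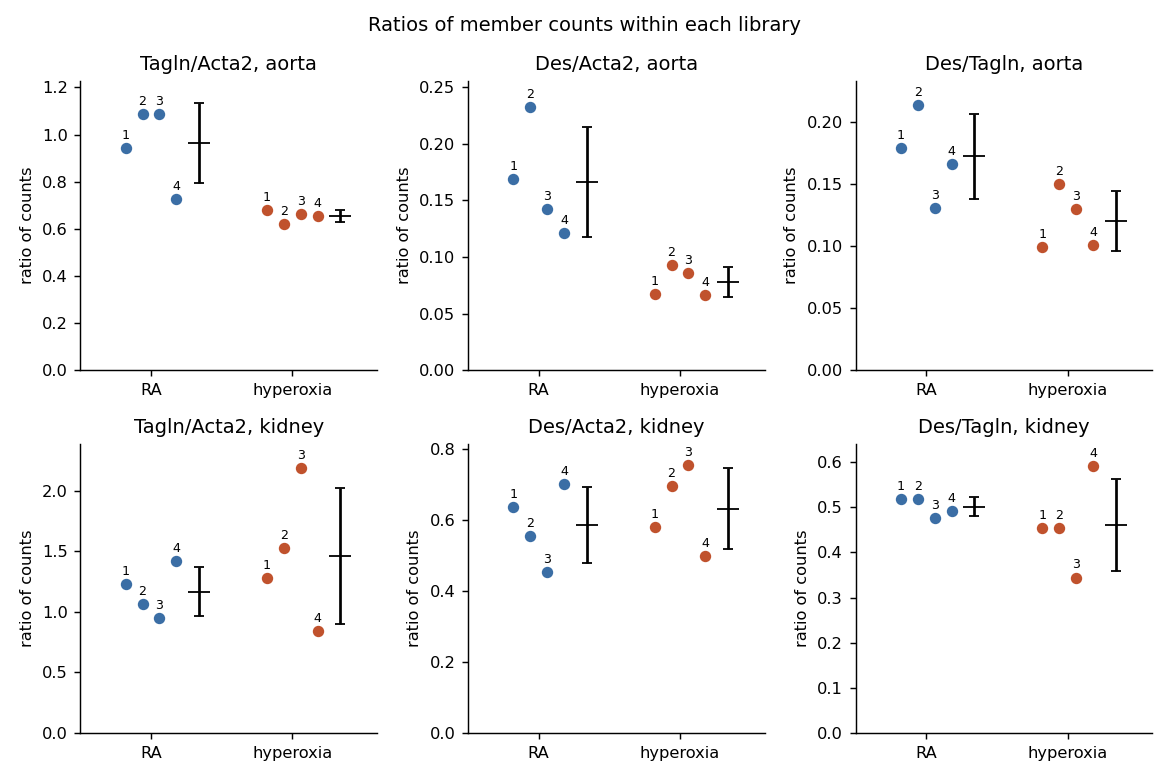
Ratios of counts within each library (vertical axes, no unit) for Tagln to Acta2, Des to Acta2 and Des to Tagln, with aortas above, kidneys below, replicate numbers beside the points and bars for mean ± SD (n = 4). In the aorta, Tagln to Acta2 reaches at most 0.681 in hyperoxia and is at least 0.729 in RA, and Des to Acta2 is at most 0.0929 against at least 0.121.

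In the kidney, the log2 fold changes of all 3 members depended strongly on 1 library, and no member was called with or without it. Acta2 was at 35.3, 40.3, 52.6 and 28.2 CPM in RA kidneys 1 to 4 and at 29.5, 38.7, 18.8 and 194 CPM in hyperoxia kidneys 1 to 4. Hyperoxia kidney 4 stood 3.70 times above the highest other kidney, and the other hyperoxia kidneys reached below the RA range. RA kidneys averaged 39.1 ± 10.3 CPM and hyperoxia kidneys 70.4 ± 83.1 CPM (SD, n = 4 each), or 29.0 ± 9.96 CPM in hyperoxia without replicate 4 (SD, n = 3).

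Tagln was at 43.3, 43.1, 49.98 and 40.1 CPM in RA kidneys 1 to 4 and at 37.8, 59.3, 41.2 and 164 CPM in hyperoxia kidneys 1 to 4. The hyperoxia mean was 75.5 ± 59.6 CPM (SD, n = 4), or 46.1 ± 11.6 CPM without replicate 4 (SD, n = 3), against 44.1 ± 4.16 CPM in RA (SD, n = 4). Replicate 4 again held the highest value of the 8, at 2.76 times the next.

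Des was at 22.5, 22.4, 23.8 and 19.7 CPM in RA kidneys 1 to 4 and at 17.1, 26.9, 14.2 and 97.0 CPM in hyperoxia kidneys 1 to 4. RA kidneys lay close together, at 22.1 ± 1.70 CPM (SD, n = 4), and hyperoxia kidneys stood at 38.8 ± 39.2 CPM (SD, n = 4), or 19.4 ± 6.67 CPM without replicate 4 (SD, n = 3). Replicates 1 and 3 were below every RA kidney, and replicates 2 and 4 above.

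In the kidney 0 of the 3 members were called by edgeR, which called 0.0% of 15069 genes, with 747 genes and none of the members at an unadjusted p-value under 0.05. With all 8 kidneys fitted, log2 fold changes were 0.87 for Acta2 (95% interval −0.68 to 2.42), 0.80 for Tagln (−0.20 to 1.79) and 0.83 for Des (−0.44 to 2.11), each with an FDR of 0.950 from edgeR. These values exceeded those of 98.3% to 98.6% of genes. Without hyperoxia kidney 4 they were −0.43 for Acta2 (−1.04 to 0.18), 0.08 for Tagln (−0.23 to 0.38) and −0.18 for Des (−0.55 to 0.18), with FDRs of 0.666, 0.883 and 0.750 from edgeR. The sign of Acta2 and Des therefore turned on that library. DESeq2, which called 0.153% of genes over 8 kidneys, gave no p-value for Acta2 and Des and an FDR of 0.880 for Tagln. When hyperoxia kidney 1, 2 or 3 was left out in its place, edgeR gave 1.10 to 1.17 for Acta2, 0.95 to 1.01 for Tagln and 1.02 to 1.10 for Des. The study left out a hyperoxia kidney that its text does not name, so it need not be the outlying library. With hyperoxia kidney 1, 2, 3 or 4 left out, DESeq2 called 13, 390, 23 and 132 genes. More genes were called lower than higher in hyperoxia only without replicate 2, with 243 lower and 147 higher. In number and direction, the genes of that fit came nearest to the study's kidney list. Which library the study left out remains unproven here.

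**Figure D3:**
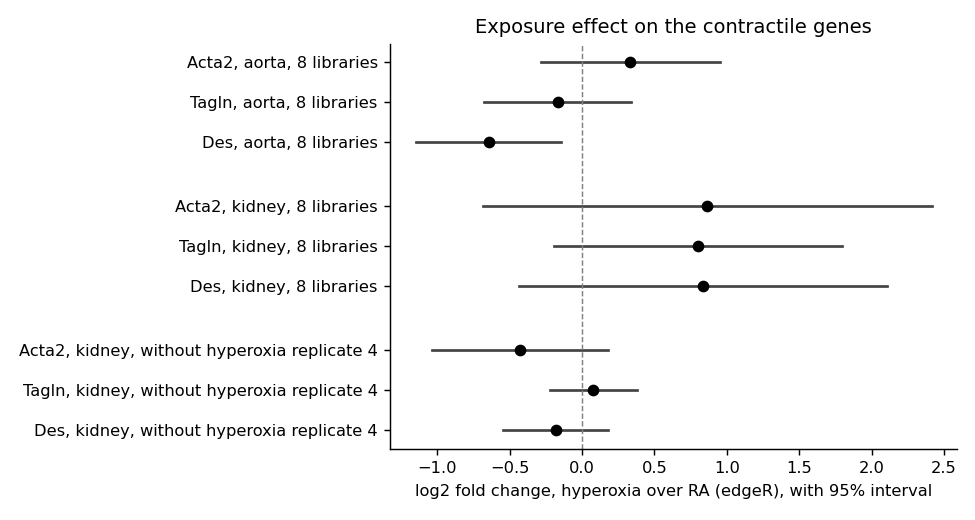
Log2 fold change of hyperoxia over RA (horizontal axis, edgeR) with its 95% interval (lines) for each member in the aorta, in the kidney, and in the kidney without hyperoxia replicate 4. The kidney values move from between 0.80 and 0.87 to between −0.43 and 0.08 when that library is left out, and the aorta interval of Des runs from −1.15 to −0.14.

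Other genes of the aorta were also high in hyperoxia kidney 4. Apart from the members, 203 genes had at least 10 CPM in RA aortas and at least 32 times the level of RA kidneys, a rule set on RA libraries after the member values were seen. Their summed level was 2769 CPM in hyperoxia kidney 4, 1008 to 1810 CPM in the other hyperoxia kidneys and 1172 to 1642 CPM in RA kidneys. Of the 151 that were tested in the kidney, 105 (69.5%) had their highest value of the 8 kidneys in this library, as had 14.0% of all 15069 genes. Each other kidney held the highest value for 0 to 18 of the 151. The largest share over all genes was that of hyperoxia kidney 2, which was highest for 39.6% of them and for 11.9% of the 151. The part of other tissue in the member levels was not tested. In hyperoxia kidney 4, 58 genes stood at least 3 times above every other kidney, and in each other kidney 0 to 4 genes did.

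In the kidney 0 of the 3 members separated the groups by CPM, as 1.84% of genes did, and 0 of the 3 ratios did, where the ratio to Acta2 separated them for 0.073% of genes and the ratio to Tagln for 3.47%. Tagln to Acta2 ranged from 0.951 to 1.42 in RA and from 0.843 to 2.19 in hyperoxia (two-sided exact permutation test, p = 0.486, adjusted p = 0.583). Des to Acta2 ranged from 0.453 to 0.700 in RA and from 0.499 to 0.754 in hyperoxia (exact permutation test, p = 0.600, adjusted p = 0.600). Des to Tagln ranged from 0.476 to 0.519 in RA and from 0.344 to 0.592 in hyperoxia (exact permutation test, p = 0.486, adjusted p = 0.583). Hyperoxia kidney 4 had the lowest Tagln to Acta2 and the highest Des to Tagln of all kidneys.

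The aorta and kidney were compared within each exposure group in one fit of all 16 libraries. All 3 members were called as higher in the aorta in RA, as were 34.5% of the 16025 genes tested, and in hyperoxia, as were 35.2%. In RA the mean CPM in the aorta was 268 times that in the kidney for Acta2, 218 times for Tagln and 72.1 times for Des. The log2 fold changes were 8.20, 7.92 and 6.34, with edgeR FDRs of 1.46e-07, 2.37e-09 and 9.43e-08. They exceeded those of 98.9% to 99.7% of genes. DESeq2 also called all 3 as higher in the aorta, with 34.2% of genes called so in RA and 33.5% in hyperoxia.

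In hyperoxia the log2 fold changes from kidney to aorta were 7.71 for Acta2, 6.99 for Tagln and 4.91 for Des, with edgeR FDRs of 2.13e-07, 5.09e-09 and 6.91e-07. Without hyperoxia kidney 4 they were 9.001, 7.71 and 5.93. The lowest hyperoxia aorta still held 55.8 times the Acta2, 43.3 times the Tagln and 7.41 times the Des of that kidney on the CPM scale. Tissue and depth go together in these libraries.

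The exposure effect was set against itself between the tissues as an interaction. The difference of aorta minus kidney in log2 fold change was −0.49 for Acta2, −0.92 for Tagln and −1.43 for Des, with edgeR FDRs of 0.895, 0.683 and 0.614 (unadjusted p = 0.543, 0.0993 and 0.0403). The test called 0 of the 3 members and 0.0% of 16025 genes, with 1277 genes below 0.05 before adjustment. DESeq2 called 0.53% of genes and 0 of the 3 members. Without hyperoxia kidney 4 the differences were 0.80, −0.21 and −0.42, so the value for Acta2 changed sign.

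How far the members moved together across libraries was described within each tissue. Correlations were computed on log2 CPM scaled by TMM, for 6 pairs over 8 libraries each. In the kidney, Pearson's r was 0.931 for Acta2 and Tagln (permutation p = 0.0188, adjusted 0.0376), 0.977 for Acta2 and Des (permutation p = 0.000273, adjusted 0.00164) and 0.972 for Tagln and Des (permutation p = 0.0122, adjusted 0.0365). Spearman's rho was 0.571, 0.905 and 0.714 (permutation p = 0.151, 0.00456 and 0.0576, adjusted 0.302, 0.0274 and 0.173). Without hyperoxia kidney 4, r was 0.466, 0.895 and 0.556 over 7 kidneys (permutation p = 0.294, 0.00476 and 0.197). Without the 2 libraries farthest from the median of the first gene named, r was 0.711, 0.796 and 0.441 over 6 kidneys (permutation p = 0.110, 0.0417 and 0.392). Acta2 and Des stayed below a permutation p of 0.05 by Pearson's r in both of these subsets, and the pairs with Tagln did not. By Spearman's rho, Acta2 and Des were at 0.857 over 7 kidneys and 0.771 over 6 (permutation p = 0.0238 and 0.103). The p-values of these subsets were not adjusted. Over all 8 kidneys, taken as deviations from the RA and hyperoxia means, r was 0.966, 0.981 and 0.985 and rho 0.952, 0.976 and 0.976. Hyperoxia kidney 4 raised the hyperoxia means, so subtracting them moved the other hyperoxia kidneys down together in every member. Both r and rho of the deviations therefore depend on that library and do not show how the members moved apart from it. With CPM by library totals, r was 0.933, 0.976 and 0.9747 and rho 0.786, 0.857 and 0.929 (permutation p for rho = 0.0279, 0.0107 and 0.00223).

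In the aorta, r was 0.503 for Acta2 and Tagln (permutation p = 0.202, adjusted 0.242), −0.129 for Acta2 and Des (permutation p = 0.761, adjusted 0.761) and 0.554 for Tagln and Des (permutation p = 0.151, adjusted 0.226). Spearman's rho was 0.286, −0.048 and 0.476 (permutation p = 0.501, 0.935 and 0.243, adjusted 0.601, 0.935 and 0.365). Taken as deviations from the RA and hyperoxia means, r was 0.856, 0.517 and 0.480 and rho 0.690, 0.667 and 0.429. Deviations within a group are tied to each other and cannot be freely exchanged between groups, so no p-value is given for them. Without the 2 libraries farthest from the median of the first gene named, r was −0.093, 0.086 and 0.706 over 6 aortas (permutation p = 0.887, 0.844 and 0.129). Correlations within a single group of 4 libraries were not computed.

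**Figure D4:**
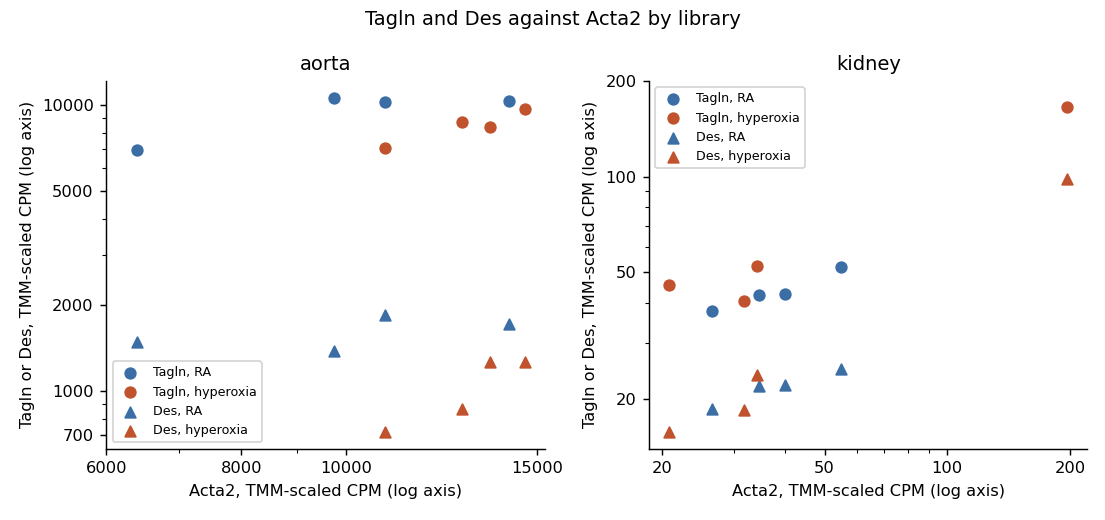
Tagln (circles) and Des (triangles) against Acta2 in each library, all as TMM-scaled CPM on log axes, with aortas on the left and kidneys on the right and RA in blue and hyperoxia in red. In the aorta, hyperoxia Des lies at or below 1262 CPM and RA Des at or above 1384 CPM, and in the kidney hyperoxia replicate 4 stands alone at the upper right.

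Over the 8 aortas, the gene most like Acta2 was ENSRNOG00000018951, with r = 0.990 in log2 CPM and a mean of 512 CPM. Tagln ranked 3801 of 15085 genes by likeness to Acta2, and Des ranked 7917. The gene most like Tagln was ENSRNOG00000024505, at a mean of 3.84 CPM and r = 0.941, with Des in rank 1356 and Acta2 in rank 1815. The gene most like Des was ENSRNOG00000053691, at a mean of 169 CPM and r = 0.986, with Tagln in rank 931 and Acta2 in rank 9175. Over the kidneys the members stood nearer each other in these orders, in libraries that include hyperoxia replicate 4. Des was in rank 6 of 15068 and Tagln in rank 59 for Acta2. For Tagln, Des was in rank 4 and Acta2 in rank 20, and for Des, Acta2 was in rank 6 and Tagln in rank 11. These values describe the libraries and share their scaling.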

How the data were processed

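PolyA RNA of 8 aortas and 8 kidneys was sequenced as paired-end reads. The authors quantified them against rat build rn6.0 (kallisto), collapsed transcripts to genes (tximport), and deposited the resulting expected counts without normalization. Tool versions and the annotation release are not given in the sources used here. Fractional values, 24.3% to 28.8% per library, were rounded before fitting. Exposure was tested in each tissue, and tissues and their interaction over 16 libraries, with edgeR 4.0.16 in R 4.3.3 (filterByExpr, TMM, quasi-likelihood test). Intervals of 95% used the test's degrees of freedom. Alternatives were DESeq2 1.42.0, limma 3.58.1 (voom with quality weights), other normalizations and filters, thinning, and leaving out each library. Permutation tests were exact. Log2 CPM had a prior count of 2. No library pair was identical. The tests of exposure in the aorta and of the interaction were tried on simulated counts. Those counts had the same relative spread for all genes and no outlying library, so they say nothing on the kidney fits with hyperoxia replicate 4.

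The members and lists were chosen with earlier results of these data known. Named are the members and, per member, the gene with the highest r over aortas. The other contractile genes and cell type markers listed by symbol were not analysed here, because 0 of 23918 identifiers matched the reference table (assembly GRCr8). The precision of a value is set mainly by the number of libraries per group.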

Additional observations from a re-analysis of the deposited data

Results flagged for a closer look

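In 24 groups of 4 libraries (the CPM and the ratios of the members by tissue and exposure), a library far from the rest of its group was looked for, and 3 were found, where chance gives about 1.2. All 3 were hyperoxia kidney replicate 4. Acta2 stood at 194 CPM in it, with the other hyperoxia kidneys between 18.8 and 38.7 CPM. For Tagln it held 164 CPM against 37.8 to 59.3 CPM in the rest of the group, and for Des 97.0 CPM against 14.2 to 26.9 CPM. The 3 values come from 1 library and are not independent of each other. Tagln passed narrowly, its gap to the next value being 0.8291 of the group's range against a limit of 0.829. The ratios use the same counts as the CPM, so the 24 groups are not independent either. The library's total of 25031895 counts was the lowest of the 8 kidneys, and its 10 most abundant genes took 34.5% of counts, against 24.9% to 33.99% in the others. The cause was not tested.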

How the results depend on the processing

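Des in the aorta stayed negative and uncalled under all 16 alternatives. Voom was run with quality weights, which count noisier libraries less. It gave −0.00414 for Acta2 in the kidney and 0.38 for Acta2 in the interaction, both with the opposite sign. It also gave smaller values for Tagln and Des, 0.21 and 0.064 in the kidney and −0.43 and −0.50 in the interaction (voom, unadjusted p = 0.391 for Des in the interaction). DESeq2 without hyperoxia kidney replicate 4 gave −0.43 for Acta2 and −0.18 for Des in the kidney. Leaving out each library in turn gave log2 fold changes in the kidney from −0.43 to 1.17 for Acta2 and from −0.18 to 1.10 for Des, and in the interaction from −0.79 to 0.80 for Acta2. The lowest kidney values and the highest interaction value were those without hyperoxia kidney replicate 4. In the kidney, Des to Acta2 ranged from −0.00833 to 0.22 in log2 difference, the lowest without RA replicate 3. In the aorta, leaving out each library gave log2 differences from −0.67 to −0.47 for Tagln to Acta2 and from −1.20 to −0.88 for Des to Acta2. Those fits cannot go below p = 0.0571 in the exact permutation test, so their loss of the threshold says nothing about stability. Differences of medians were −0.62 and −1.02 (exact permutation p = 0.0571 for both). That is the lowest p that a difference of medians can give with 4 against 4, so it does not show weaker separation.

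For correlations in the aorta, r for Acta2 and Tagln was 0.856 on deviations from group means, 0.746 on CPM by library totals and −0.0925 without the 2 farthest libraries, and r for Acta2 and Des was 0.517, 0.167 and 0.0856. In the kidney, r without the 2 farthest libraries was 0.711 for Acta2 and Tagln and 0.441 for Tagln and Des, and without hyperoxia replicate 4, added after seeing the data, 0.466 and 0.556. What caused these changes was not tested.

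In 3 cases a hyperoxia aorta and a hyperoxia kidney carry the same library number. Over those 6 libraries, the fit with the number as a replicate block gave a log2 difference between the tissues of 9.02 for Acta2, 7.68 for Tagln and 5.96 for Des, and the fit without the block, added after seeing the data, gave 8.99, 7.69 and 5.99. Deviations of same-numbered libraries correlated at 0.0447, −0.00741 and 0.0624, and those of libraries with different numbers at −0.125 to 0.1504. These correlations compare different tissues and cannot show whether same-numbered libraries come from the same animal. The numbers were not used as pairs in the main fits, and whether they mark the same animal is not known here. Within a tissue, the groups share no number. Every alternative kept 0 of 3 members called for exposure and for the interaction, and 3 of 3 between the tissues.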
